A study of Mus musculus with 30 samples.

Results

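The first 2 days after sciatic nerve transection (SNT), in which the sciatic nerve is cut, were examined in microglia of the mouse lumbar spinal cord. The libraries were chosen by their labels: 4 of the 30 in the series came from transected mice, 2 at 1 day post injury (dpi) and 2 at 2 dpi, and they were compared with all 9 control libraries. All mice were of the C57BL/6J strain, and the labels name no transgene, age or sex. The controls were 2 naive libraries, 4 from saline given on a fixed regimen and 3 from saline given on an escalating regimen. No control is labelled as sham-operated, so surgery itself and the nerve cut cannot be told apart. The labels do not say on which side of the cord cells were taken, how many mice entered a library, or that libraries came from separate mice, so p-values measure the spread between libraries only. Expression was given as FPKM, a fragment count divided by transcript length and by the size of the library.

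Microglia are macrophages that live in the brain and spinal cord. After a peripheral nerve is cut, injured sensory and motor neurons release signals such as CSF1 and ATP in the cord, and microglia near their terminals and cell bodies change shape, divide and take up a reactive expression programme; several of the genes involved, among them P2rx4, Irf8 and Ctss, are linked to neuropathic pain. The cells here were selected with magnetic beads against CD11b, an integrin encoded by Itgam that neutrophils and monocytes also carry on their surface. Genes of neutrophils, monocytes, lymphocytes, neurons and glia were therefore read beside the microglial genes.

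Before the results, 2 of the 4 libraries have to be set apart. SNT_1dpi replicate 1 had 8005 genes at 1 FPKM or more and SNT_2dpi replicate 2 had 8763, against 9634 and 9625 in the other two and 9215 to 10068 in the controls. Depth, estimated from the spacing of low FPKM values, was about 7330000, 10200000, 1740000 and 2710000 fragments in SNT_1dpi replicates 1 and 2 and SNT_2dpi replicates 1 and 2, and 1970000 to 20200000 in the controls. The next best spacing gave 2420000, 20500000, 3470000 and 5410000 in the same order, so all 4 depths are uncertain. Each control also had a second possible depth. SNT_2dpi replicate 1, with the least depth at the best spacing, was within the controls in genes detected. Cst3 encodes the protease inhibitor cystatin C and is among the most abundant microglial messages. Its transcripts made up 19.1%, 15.3%, 11.9% and 20.1% of all FPKM in the 4 libraries. The controls differed by set, with 5.52% and 5.54% in the naive libraries and 9.75% to 15.3% in the saline libraries. Correlation with the mean of the controls on the log2 scale was 0.874 and 0.891 in the 2 libraries with few genes and 0.969 and 0.968 in the others. The main counts, list medians and differences of the 4 early libraries are therefore given also without SNT_1dpi replicate 1 and SNT_2dpi replicate 2, which leaves 1 library per day.

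**Figure D1:**
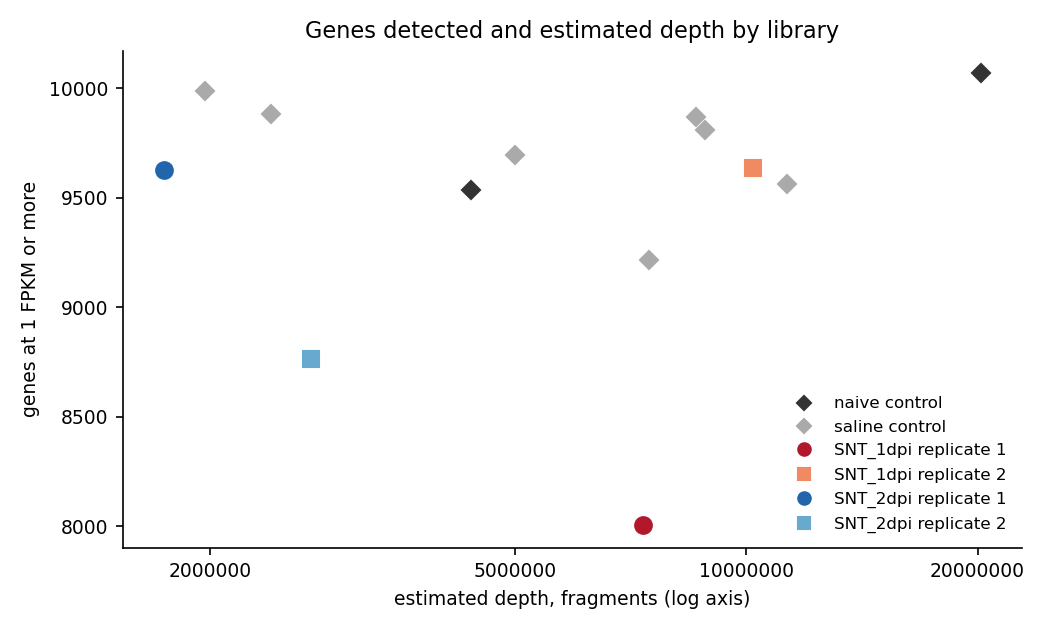
Genes at 1 FPKM or more (vertical axis) against the estimated depth in fragments (horizontal axis, log scale), 1 point per library, for the 2 naive controls, the 7 saline controls and the 4 early SNT libraries. SNT_1dpi replicate 1 and SNT_2dpi replicate 2 lie below all 9 controls, and the library with the least depth does not.

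The defining markers of the labelled cell type were present in all libraries. Tmem119, a surface marker of microglia, stood at 920.4, 1179, 1358 and 262 FPKM in SNT_1dpi replicates 1 and 2 and SNT_2dpi replicates 1 and 2, the order kept for 4 values throughout, and at 572 to 1443 FPKM with a median of 1044 in the controls. SNT_2dpi replicate 2 was below all controls. The neutrophil alarmin gene S100a8 was also abundant, at 1119.9, 7252, 1086 and 11694 FPKM and at 1642 to 30884 FPKM with a median of 5047 in the controls. Transcripts typical of neutrophils were thus present in injured and control libraries alike.

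Of 11759 genes tested with limma on log2(FPKM + 1), 0 passed an adjusted p of 0.05 when the 4 early libraries were set against the 9 controls. The lowest adjusted p was 0.128, and the share called was 0% in both directions. At an unadjusted p under 0.05 there were 453 higher genes (3.85% of those tested) and 1562 lower genes (13.3%), 2015 in all. Without the 2 libraries with few genes the same count was 49 higher and 104 lower, and 4 genes (0.034%) passed the adjusted threshold; they are described with the genes outside the lists. Without SNT_1dpi replicate 2, 137 genes were higher and 834 lower at an adjusted p of 0.05, and without SNT_2dpi replicate 1, 312 and 1324. Those fits keep both libraries with few genes beside 1 other. Over all genes, 8390 of 11759 differences were negative and 3361 positive with 4 libraries, and 5788 were positive with 2. The median difference over all genes was -0.25 on the log2 scale with 4 libraries and -0.01 with 2. It was -0.01 after quantile normalization and -0.50 after rescaling to TPM, in which each library sums to 1000000, so a list is read below against the median over all genes. In all 4 libraries 10 genes (0.085%) lay above all 9 controls and 67 (0.57%) below. Those counts were 160 and 418 without SNT_2dpi replicate 1, 17 and 164 without SNT_1dpi replicate 2, and 18 above without SNT_2dpi replicate 2.

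Of the 35 lists of genes read, those of neutrophils and monocytes had the lowest medians against the full set of controls. All 15 neutrophil genes tested and all 12 monocyte genes tested had a negative difference, with medians of -1.58 and -1.47 on the log2 scale against -0.25 over all genes. An unadjusted p under 0.05 was reached on the lower side by 12 of the 15 and 11 of the 12, beside 13.3% of all genes, and none passed the adjusted threshold. Without the 2 libraries with few genes the medians were -1.18 and -1.23, all differences in both lists were negative, and 4 and 3 genes had an unadjusted p under 0.05 on the lower side, beside 0.884% of all genes. The mean of log2(FPKM + 1) over the neutrophil list was 4.09, 7.16, 6.22 and 6.80 in the 4 libraries and 6.87 to 9.35 in the controls, so SNT_1dpi replicate 2 fell inside the control range. Over the monocyte list it was 0.80, 3.05, 2.83 and 3.11 against 3.15 to 5.27, with all 4 libraries below all controls. For the neutrophil list the lowest controls were the naive ones, at 6.87 and 6.92. Against naive libraries alone the neutrophil and monocyte medians were -0.74 and -0.73, and against saline libraries alone -1.84 and -1.625. These lists were not the lowest against naive libraries alone, where the mitosis and G2/M median was -1.39 and that over all genes -0.31. The 2 naive libraries lay far apart in the mitosis list, with means of log2(FPKM + 1) of 1.07 and 2.81. In such bulk libraries fewer neutrophils and less of these RNAs per cell cannot be told apart.

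Ltf, which encodes the iron-binding protein lactoferrin of neutrophil secondary granules, was at 17.6, 157, 126 and 46.4 FPKM, and the controls ran from 209.9 to 960.3 FPKM with a median of 339.6. All 4 libraries lay below all controls, the naive pair (220.3 and 419 FPKM) included. The difference was -2.58 ± 0.49 (SE) on the log2 scale, with a limma adjusted p of 0.128, and -1.45 without the 2 libraries with few genes. Ngp, the neutrophilic granule protein, was at 29.6, 742, 492.8 and 755 FPKM and its controls ran from 860.3 to 4509 FPKM with a median of 1402. Chil3, a chitinase-like protein that neutrophils and monocytes secrete, was at 0.443, 177, 113 and 166 FPKM against 181 to 1974 FPKM with a median of 393 in the controls. Again both genes were below all controls in all 4 libraries, with differences of -2.40 ± 0.58 and -3.23 ± 0.79 (SE) and limma adjusted p of 0.132 for each. The lowest values of both came from SNT_1dpi replicate 1; without it and SNT_2dpi replicate 2 the differences were -1.40 and -1.63. Prtn3, the primary granule protease proteinase 3, completed the neutrophil genes below all controls, at 0, 7.8995, 4.15 and 4.95 FPKM with a lowest control of 8.25. Cd177, a surface protein of neutrophils that was not in the list, showed the same order, at 6.13, 26.4, 28.4 and 6.67 FPKM against 29.3 to 168 FPKM with a median of 66.01, with a difference of -2.31 ± 0.46 (SE) and a limma adjusted p of 0.128. Without the 2 libraries with few genes the differences of Prtn3 and Cd177 were -1.47 and -1.34.

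Other abundant neutrophil genes, S100a8, S100a9 and Camp, overlapped the controls in part. S100a9, the partner of S100a8, was at 607, 3617, 902 and 6066 FPKM and at 1494 to 20749.9 FPKM with a median of 3824 in the controls. Both alarmin genes were under all controls in SNT_1dpi replicate 1 and SNT_2dpi replicate 1 and well inside the control range in the other two. Camp, which encodes the antimicrobial peptide cathelicidin, was at 50.3, 763, 169.8 and 819 FPKM against 331 to 2473 FPKM with a median of 630.1, with the same 2 libraries below. SNT_2dpi replicate 1 has the usual number of genes, so these low values were not limited to the libraries with few.

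Among the monocyte genes, Ly6c2, part of the Ly6C surface antigen of inflammatory monocytes, was at 3.41, 67.6, 30.1 and 117 FPKM against 46.2 to 304 FPKM with a median of 115. Its difference was -1.84 ± 0.58 (SE; limma adjusted p 0.154; -1.33 without the 2 libraries with few genes), and SNT_1dpi replicate 2 and SNT_2dpi replicate 2 overlapped the controls. Ccr2, the chemokine receptor by which these monocytes leave the marrow, was at 0, 2.04, 3.28 and 1.802 FPKM against 2.85 to 18.3 FPKM with a median of 10.7, and only SNT_2dpi replicate 1 reached the control range. Genes of receptors shared by neutrophils and monocytes followed: Ccr1 was at 0.627, 8.05, 2.84 and 4.44 FPKM (controls 5.73 to 59.7 FPKM with a median of 14.2), and Cxcr2, the neutrophil receptor for CXC chemokines, at 0.897, 10.95, 6.04 and 6.44 FPKM (controls 7.42 to 90.1 FPKM with a median of 14.9). Neither group of values was fully separate. Chil3, Ly6c2, Pirb and the ribosomal protein genes have close copies in the genome, and how fragments were shared among copies is not given in the sources used here.

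As examples of low neutrophil genes that hold the motif, the 100 bases before the RefSeq start of Ltf and Chil3 are printed 5′ to 3′ in the gene's direction (build GRCm38.p6). Capitals mark the core of the motif bound by C/EBP factors, which drive granule genes in maturing neutrophils, searched as TTNNGNAA on both strands.
Ltf (chr9:111019192-111019291, plus strand): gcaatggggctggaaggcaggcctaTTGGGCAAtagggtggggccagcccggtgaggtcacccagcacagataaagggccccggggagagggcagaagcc
Chil3 (chr3:106167565-106167664, minus strand): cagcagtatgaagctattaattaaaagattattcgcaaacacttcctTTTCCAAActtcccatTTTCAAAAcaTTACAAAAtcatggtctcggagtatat
Ltf held 1 match in these bases and Chil3 held 3. Of the other 2 neutrophil genes below all controls, Ngp held 1, and Prtn3 held 0 in the 100 and in the 250 bases. In the 250 bases before the start the letters occurred in 8 of the 13 neutrophil genes with a sequence in the RefSeq table, and in 28.5% of the 9031 tested genes with one. A match is a run of letters, not a measured site.

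Genes of cell division were the second group at low values. In the list of mitosis and G2/M genes 25 of 26 genes had a negative difference, with a median of -0.998, and in the DNA replication list 23 of 29, with a median of -0.68. On the lower side 11 of 26 and 9 of 29 had an unadjusted p under 0.05, beside 13.3% of all genes, and none passed the adjusted threshold. Without the 2 libraries with few genes the mitosis median was -0.84 with all 26 differences negative, but 0 of 26 had an unadjusted p under 0.05; the DNA replication median was -0.23. The mean of log2(FPKM + 1) over the mitosis list was 0.62, 0.97, 0.70 and 0.62 in the 4 libraries, all below the control range of 0.99 to 2.81. Of the 67 genes below all controls (0.57% of those tested), 8 came from these 2 lists. They were 5 of the 26 mitosis genes and 3 of the 29 DNA replication genes.

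Ccnb1, cyclin B1 of the mitotic entry kinase, was listed at 0 in SNT_1dpi replicate 1 and stood at 0.933, 1.24 and 1.12 FPKM in the others. Its controls ran from 2.15 to 11.2 FPKM with a median of 3.43, and no library overlapped them. The difference was -1.50 ± 0.56 (SE; limma adjusted p 0.21), and -1.25 without the 2 libraries with few genes. Aurka, the spindle kinase Aurora A, was listed at 0 in SNT_1dpi replicate 1 and at 0.813, 0.303 and 0.195 FPKM otherwise, against 0.964 to 7.56 FPKM with a median of 2.05. Rrm2, the small subunit of ribonucleotide reductase, which makes deoxynucleotides for replication, was at 3.19, 1.58, 2.64 and 1.53 FPKM against 3.43 to 18.6 FPKM with a median of 6.89. All 4 were below all controls for both genes, and for Rrm2 SNT_1dpi replicate 1 was the highest of the 4. The difference was -1.45 ± 0.48 (SE; limma adjusted p 0.177) and -1.49 without the 2 libraries with few genes. Mki67, which encodes the Ki-67 antigen of dividing cells, was listed at 0 in SNT_1dpi replicate 1, was at 0.497, 0.428 and 0.385 FPKM in the others, and ran from 0.949 to 8.24 FPKM with a median of 1.21 in the controls. Kif11, a spindle motor, Ndc80, a kinetochore protein, Uhrf1, a maintenance factor of DNA methylation, and Cdt1, which licenses replication origins, were also below all controls in all 4 libraries. The levels are low: all 4 Mki67 values are under 0.5 FPKM, and the 2 naive libraries stood at 2.17 and 11.2 FPKM of Ccnb1.

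As examples of low mitotic genes that hold such motifs, the 100 bases before the RefSeq start of Aurka and Kif11 are printed in the same way, with capitals for the CCAAT box (CCAAT, both strands) and for the cell cycle homology region, or CHR (TTTGAA, both strands).
Aurka (chr2:172370571-172370670, minus strand): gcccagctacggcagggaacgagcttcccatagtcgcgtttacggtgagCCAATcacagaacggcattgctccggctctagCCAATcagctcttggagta
Kif11 (chr19:37376282-37376381, plus strand): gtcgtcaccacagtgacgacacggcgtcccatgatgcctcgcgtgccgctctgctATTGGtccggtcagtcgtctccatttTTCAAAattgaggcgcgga
Aurka held 2 CCAAT boxes, and Kif11 held 1 CCAAT box and 1 CHR. Of the other 3 mitosis genes below all controls, Ccnb1 held 2 CCAAT boxes in its 100 bases, Mki67 held a CHR and 0 CCAAT boxes there, and Ndc80 held 0 of either motif in 100 or 250 bases. Within 250 bases of the start, CCAAT occurred in 18 of 21 mitosis genes with a sequence and in 36.9% of all 9031 tested genes with one. The CHR occurred in 7 of 21 and in 10.5%. Neither motif was measured for binding here.

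**Figure D2:**
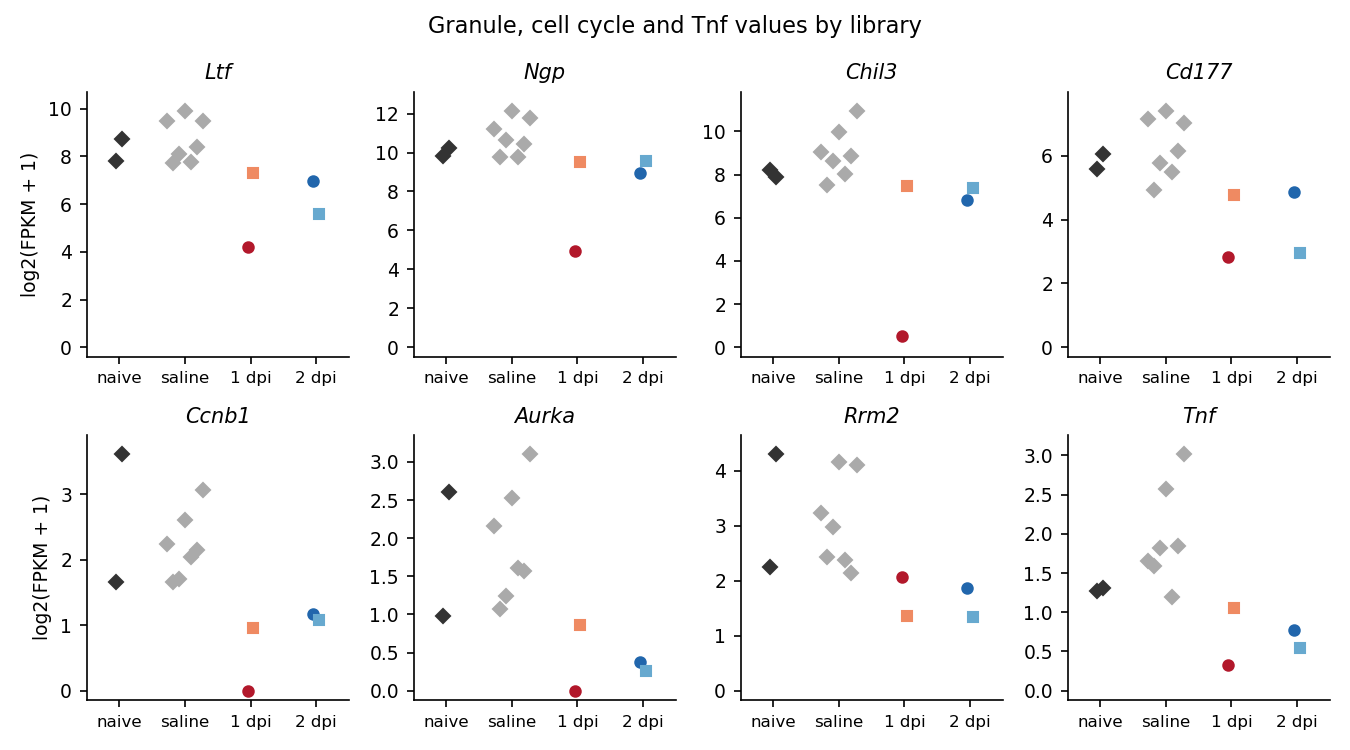
log2(FPKM + 1) of 8 genes in each library: dark diamonds are naive controls, grey diamonds saline controls, red and orange symbols SNT_1dpi replicates 1 and 2, dark and light blue symbols SNT_2dpi replicates 1 and 2. In all 8 genes the 4 SNT libraries lie below all 9 controls, and the SNT_1dpi replicate 1 value is listed at 0 FPKM for Ccnb1 and Aurka.

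P2ry12, Csf1r and Cx3cr1, which mark resting microglia, were inside or just above the control range in the 2 libraries with the usual gene number. SNT_2dpi replicate 2 was below the range in each of them. Cst3, also in the homeostatic list, went the other way in that library, at 95123 FPKM with a highest control of 65263 FPKM. P2ry12, the ADP receptor by which microglia sense injury, was at 689, 899, 1114 and 562 FPKM against 804 to 1441 FPKM with a median of 1061. The libraries with few genes were below all controls and the other two were inside the range, with a difference of -0.39 ± 0.25 (SE; limma adjusted p 0.413) and of -0.05 without them. Csf1r, the receptor for the growth factor CSF1, was at 1832, 1734, 3103 and 469 FPKM against 1447 to 3185 FPKM with a median of 2191; only SNT_2dpi replicate 2 was below the range. Cx3cr1, the fractalkine receptor, was at 736, 1048, 1439 and 345 FPKM against 727 to 1406 FPKM with a median of 1119, with SNT_2dpi replicate 2 below all controls and SNT_2dpi replicate 1 just above. Over the 22 tested homeostatic genes, the median was -0.27 with 16 negative differences, a share close to that over all genes, and 0.16 without the 2 libraries, with 17 positive.

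Of the 29 tested genes linked to neuropathic pain, 25 had a negative difference with a median of -0.47, and 0 passed the adjusted threshold. The median was 0.00 without the 2 libraries with few genes, with 14 of 29 positive. Among receptors, P2rx4, the ATP-gated channel that rises on spinal microglia after nerve injury, was at 22.5, 24.9, 19.02 and 6.49 FPKM against 21.04 to 43.9 FPKM with a median of 25.04. Both 2 dpi libraries were below the control range and both 1 dpi libraries inside it, with a difference of -0.74 ± 0.29 (SE; limma adjusted p 0.217; -0.35 without the 2 libraries with few genes). No early library exceeded the highest control. Tlr2, a receptor for bacterial lipoproteins, was at 21.1, 39.98, 59.8 and 10.5 FPKM against 28.9 to 53.8 FPKM with a median of 39.8. Tlr4, the lipopolysaccharide receptor, was at 9.01, 8.97, 19.7 and 2.98 FPKM and inside 4.997 to 32.6 FPKM of the controls in all but SNT_2dpi replicate 2. Among transcription factors, Irf8 was at 144, 154, 160.3 and 41.4 FPKM against 90.9 to 219 FPKM with a median of 145, and Irf5 at 151, 144, 156 and 37.5 FPKM against 104 to 159 FPKM with a median of 140.4. For both, SNT_2dpi replicate 2 was below all controls and the other 3 libraries were in range; the differences were -0.29 ± 0.29 and -0.38 ± 0.26 (SE; limma adjusted p 0.598 and 0.44), and 0.22 and 0.11 without the 2 libraries with few genes. Among secreted products, Ctss, the protease that frees fractalkine from neurons, was at 7402, 6688, 7273 and 7204 FPKM, with 1 value above the highest control of 7358 FPKM. Bdnf was listed at 0 in all 4 libraries and was not tested, with no control above 0.333 FPKM. Cybb, the catalytic subunit of the phagocyte NADPH oxidase, which neutrophils share, was at 1.695, 14.6, 18.3 and 8.48 FPKM against 16.5 to 68.3 FPKM with a median of 29.1 (difference -1.85 ± 0.43, SE; limma adjusted p 0.132; -0.96 without the 2 libraries with few genes).

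Aif1 was the one pain-linked gene with an unadjusted p under 0.05 on the higher side. It encodes IBA1, the protein stained to show microglia in tissue, and was at 739, 555, 361 and 769.7 FPKM against 202 to 521 FPKM with a median of 312. All but SNT_2dpi replicate 1 exceeded every control, with a difference of 0.87 ± 0.26 (SE; limma adjusted p 0.15) and 0.50 without the 2 libraries with few genes. Itgam, which encodes the CD11b used for the selection, was at 140.1, 126, 342 and 49.1 FPKM against 98.8 to 390.2 FPKM with a median of 256. Of the reactive genes, Apoe, an apolipoprotein, was at 1776, 1356, 1011 and 978 FPKM against 591 to 3932 FPKM with a median of 1092, and Cd68, a lysosomal glycoprotein of phagocytes, at 383, 467, 528 and 480.5 FPKM against 309.9 to 507 FPKM with a median of 395. Both overlapped the controls, with limma adjusted p of 0.884 and 0.655. The median over the 23 tested genes of microglial activation was -0.29, and -0.08 without the 2 libraries.

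**Figure D3:**
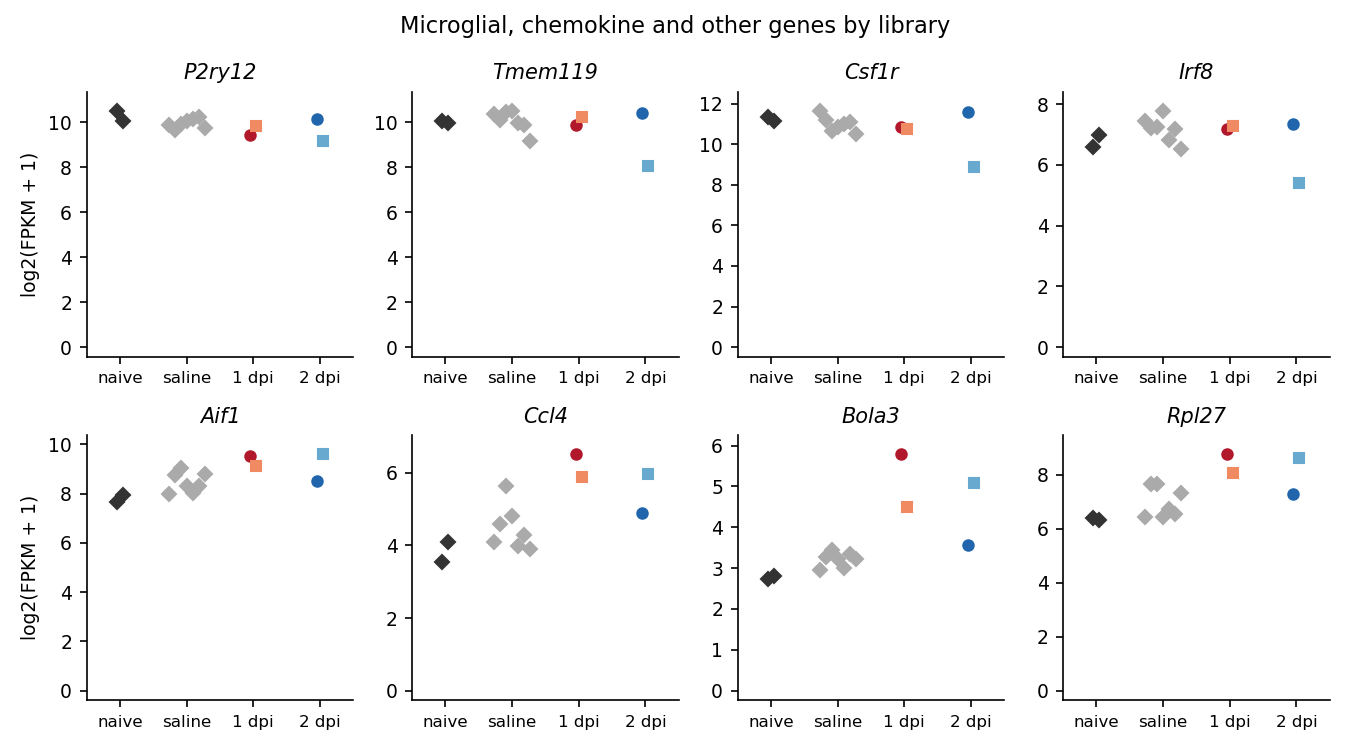
log2(FPKM + 1) of 8 genes by library, with symbols as in the plot of granule and cell cycle genes. P2ry12 and Csf1r overlap the controls in 2 and 3 of the 4 libraries, Aif1 and Rpl27 exceed them in 3 of 4, and Bola3 exceeds them in all 4.

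Of the chemokine ligand genes 10 of 17 tested had a positive difference, with a median of 0.14 against -0.25 over all genes. Without the 2 libraries with few genes it was 0.18 against -0.01. After TPM rescaling it was -0.09 against -0.50, after quantile normalization 0.27 against -0.01, and after median-ratio scaling 0.32 against -0.08. On the higher side 4 of the 17 genes had an unadjusted p under 0.05, beside 3.85% of all genes. These genes are short, with a median transcript length of 1.15 kb, and differences by length are given below. Ccl4, the chemokine MIP-1β, was at 89.9, 57.9, 28.7 and 61.6 FPKM, and its controls ran from 10.7 to 49.2 FPKM with a median of 16.1. It was above all controls in 3 libraries and inside the range in SNT_2dpi replicate 1. The difference was 1.48 ± 0.36 (SE; limma adjusted p 0.132) and 1.06 without the 2 libraries with few genes. Ccl2, the ligand of Ccr2, was listed at 0 in SNT_1dpi replicate 1 and was at 3.29, 1.43 and 5.96 FPKM in the others, against 0 to 9.39 FPKM with a median of 1.49. Ccl12 was at 42.5, 41.97, 24.7 and 69.6 FPKM against 20.8 to 126 FPKM with a median of 42.1, and neither of these ligands lay apart from the controls. Over the 10 chemokine receptors tested the median was -0.51, and -0.07 without the 2 libraries. Their list mean was 1.93, 3.18, 3.17 and 2.70 in the 4 libraries, all below the control range of 3.21 to 3.82, and Ccr1, Ccr2 and Cxcr2 above are among them.

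Inflammatory cytokine genes were mostly on the lower side, as were most genes. At an unadjusted p under 0.05, 8 of 19 were lower beside 13.3% of all genes, and 0 of 19 beside 0.884% without the 2 libraries with few genes. Tnf, the gene of tumour necrosis factor, was at 0.255, 1.07, 0.716 and 0.461 FPKM, and its controls ran from 1.296 to 7.07 FPKM with a median of 2.15. All 4 libraries were below all controls, the difference was -1.13 ± 0.34 (SE; limma adjusted p 0.143), and it was -0.90 without the 2 libraries with few genes. Il1b, the precursor of interleukin 1β, was at 4.73, 12.03, 3.03 and 6.96 FPKM inside a wide control range of 1.21 to 89.9 FPKM. Il1r2, a decoy receptor for interleukin 1 that neutrophils express, was listed at 0 in SNT_1dpi replicate 1 and was at 3.87, 2.14 and 5.78 FPKM in the others, against 3.49 to 160.3 FPKM with a median of 12.03. Nfkbia, the inhibitor of NF-κB, was at 89.9, 107, 91.3 and 84.3 FPKM against 32.1 to 106 FPKM with a median of 54.999, higher than the control median in all 4 libraries with a limma adjusted p of 0.251. These values overlapped the controls for all 3 genes in at least 2 libraries. The list of 19 cytokines and their brakes had 16 negative differences and a median of -0.62 (-0.20 without the 2 libraries). For 21 toll-like receptor pathway genes the medians were -0.59 and 0.01, and for 22 immediate early genes -0.33 and -0.18. Ier2, an immediate early gene, was listed at 0 in SNT_1dpi replicate 1 and at 13.9, 4.91 and 5.0997 FPKM otherwise against 7.37 to 41.5 FPKM with a median of 18.2. Atf3, a stress factor better known from the injured neurons, was at 7.11, 7.76, 6.69 and 1.68 FPKM against 3.47 to 7.74 FPKM with a median of 5.85.

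No complement, antigen presentation, Fc receptor or interferon gene passed the adjusted threshold. C1qa, a chain of the complement starter C1q, was at 4489, 4265, 3259.5 and 3288 FPKM against 1449 to 4744 FPKM with a median of 2485. C3, the central complement protein, which neutrophils and monocytes also make, was listed at 0 in SNT_1dpi replicate 1 and was at 3.84, 6.82 and 1.51 FPKM otherwise, against 3.85 to 35.6 FPKM with a median of 11.8. All 4 libraries were in the upper part of the control range for C1qa, and 3 of 4 were below the range for C3. The complement median was -0.62 (-0.14 without the 2 libraries). Of MHC class II genes, Cd74, the invariant chain, was at 78.1, 78.4, 136 and 103 FPKM against 82.97 to 176 FPKM with a median of 106, and of class I genes H2-D1 was at 390.3, 440.4, 439 and 167 FPKM against 393 to 800.0 FPKM with a median of 583. For Cd74 both 1 dpi libraries were just below all controls. The median over 9 class II genes was 0.04, and 0.78 against naive and -0.30 against saline controls alone, so its direction turned with the control set. The median over 18 class I genes was -0.31, and 0.06 without the 2 libraries. Fcer1g, the signalling chain shared by Fc receptors, was at 2803, 2161, 1200.5 and 4175 FPKM against 766 to 2178 FPKM with a median of 1453, and Fcgr4, an activating IgG receptor of myeloid cells, at 9.83, 13.5, 12.9 and 15.97 FPKM against 13.6 to 36.3 FPKM with a median of 21.7. The first was above all controls in the 2 libraries with few genes and the second below them in all but SNT_2dpi replicate 2. For 30 type I interferon genes the median was -0.56, and -0.23 without the 2 libraries. Oas3, a sensor of double-stranded RNA, was the one of them below all controls, listed at 0 in SNT_1dpi replicate 1 and at 0.645, 0.609 and 0.235 FPKM in the others, against 1.24 to 6.88 FPKM with a median of 2.33 (difference -1.50 ± 0.33, SE; limma adjusted p 0.132; -1.23 without the 2 libraries).

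**Figure D4:**
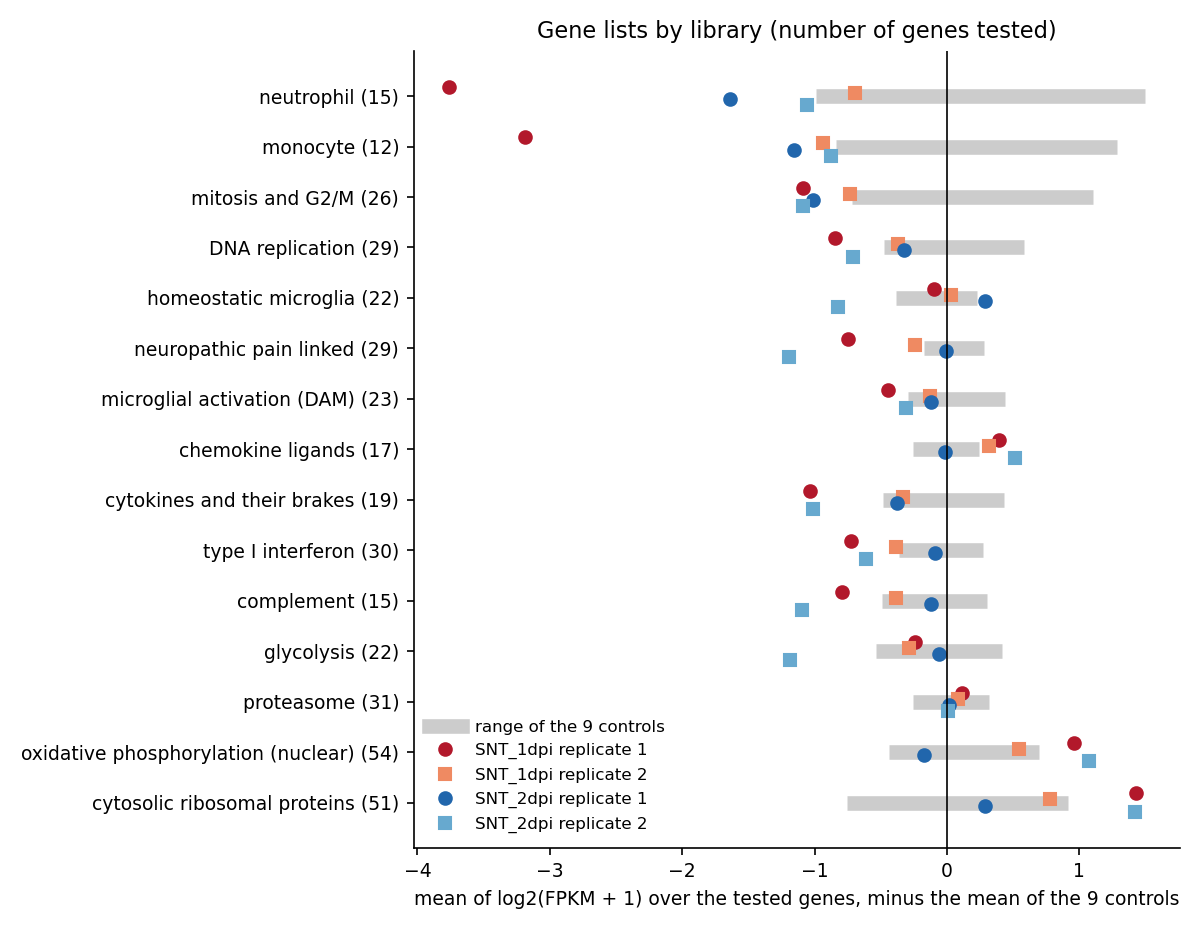
Mean of log2(FPKM + 1) over the tested genes of 15 lists, minus the mean of the 9 controls, for each early SNT library; grey bars span the controls. The neutrophil, monocyte and mitosis points lie at the low end of the control bars or beyond it in all 4 libraries, and the ribosomal and oxidative phosphorylation points lie above the bars in SNT_1dpi replicate 1 and SNT_2dpi replicate 2.

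Of the 35 lists, those of ribosomal protein and respiratory chain genes had the highest medians. Of 51 cytosolic ribosomal protein genes 50 had a positive difference, with a median of 0.92, and of 54 nuclear genes of oxidative phosphorylation 45, with a median of 0.77. An unadjusted p under 0.05 on the higher side was reached by 38 of 51 and 26 of 54, beside 3.85% of all genes, and by none after adjustment. Without the 2 libraries with few genes the medians were 0.49 and 0.19, and 2 of 51 and 0 of 54 had an unadjusted p under 0.05 on the higher side, beside 0.417% of all genes. Rpl27, a large-subunit protein gene, was at 428, 263, 153 and 386 FPKM against 78.3 to 199 FPKM with a median of 91.4, above all controls in all but SNT_2dpi replicate 1. Its difference was 1.34 ± 0.32 (SE; limma adjusted p 0.132) and 0.84 without the 2 libraries. Rps29, of the small subunit, was at 4041, 2652, 1141 and 5619.9 FPKM against 336 to 1864 FPKM with a median of 649. Both were inside the control range in SNT_2dpi replicate 1 alone. Cox8a, a subunit of cytochrome oxidase, was at 587, 494, 295 and 1042 FPKM against 90.99 to 480.4 FPKM with a median of 205, above the controls in SNT_1dpi replicates 1 and 2 and SNT_2dpi replicate 2. Of the glycolysis genes 18 of 22 had a negative difference, with a median of -0.47 (-0.22 without the 2 libraries). Slc2a3, the glucose transporter GLUT3, was below all controls at 1.31, 5.04, 3.77 and 1.21 FPKM against 5.78 to 19.98 FPKM with a median of 9.698 (difference -1.71 ± 0.43, SE; limma adjusted p 0.132; -1.08 without the 2 libraries). Proteasome genes had a median of 0.09.

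The difference from the controls moved with the length of the transcript, downwards in 3 of the 4 libraries and upwards in SNT_2dpi replicate 1. With ribosomal and oxidative phosphorylation genes left out, the median difference of the early libraries was 0.28 over 286 genes under 1 kb of summed exons, 0.03 over 1207 genes of 1 to 2 kb and -0.33 over 4219 genes of 4 to 8 kb. From under 1 kb to the bin of 4 to 8 kb the median went from 0.72 to -0.69 in SNT_2dpi replicate 2 and from 0.13 to -0.54 in SNT_1dpi replicate 1. It went from 0.42 to -0.17 in SNT_1dpi replicate 2 and the opposite way, from -0.28 to 0.11, in SNT_2dpi replicate 1. Of these genes, 68.5% of those under 1 kb and 51.4% of those of 1 to 2 kb had a positive difference. The median length was 1.15 kb for the chemokine ligand list, 1.73 kb for the ribosomal list, 1.63 kb for the neutrophil list and 4.51 kb for the mitosis list. The part of transcript length in the list values was not tested.

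**Figure D5:**
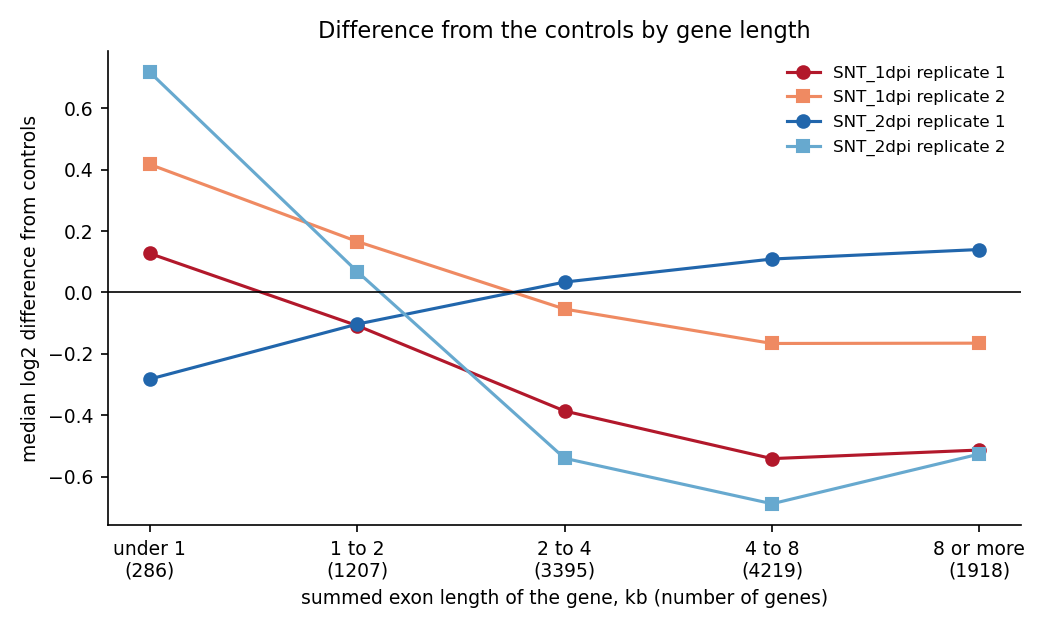
Median log2 difference from the mean of the controls (vertical axis) by summed exon length of the gene (horizontal axis, number of genes in parentheses) in each early SNT library, without ribosomal and oxidative phosphorylation genes. The line of SNT_2dpi replicate 2 falls from 0.72 to -0.69 between the shortest genes and those of 4 to 8 kb, and that of SNT_2dpi replicate 1 rises from -0.28 to 0.11.

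The 10 genes above all controls in all 4 libraries were 0.085% of those tested, and no gene of the 10 passed the adjusted threshold. How many such genes arise by chance was not tested. Of the 10, 5 averaged 5 FPKM or more in the injured or the control libraries. Bola3, a mitochondrial factor of iron-sulfur cluster assembly, was at 54.1, 21.6, 10.8 and 33.1 FPKM against 5.61 to 9.82 FPKM with a median of 8.35. Its difference was 1.62 ± 0.36 (SE; limma adjusted p 0.132) and 0.92 without the 2 libraries. Ddx18, a nucleolar RNA helicase of ribosome assembly, was at 26.4, 16.3, 16.6 and 18.7 FPKM against 7.01 to 14.9 FPKM with a median of 11.2, and Rala, a small GTPase of vesicle traffic, at 25.8, 20.8, 19.6 and 28.5 FPKM against 13.8 to 19.03 FPKM with a median of 17.2. Both were above all controls in all 4 libraries, with differences of 0.71 ± 0.23 and 0.46 ± 0.22 (SE; limma adjusted p 0.174 and 0.29), and 0.51 and 0.26 without the 2 libraries. The other two, 2810025M15Rik and A930005H10Rik, are a transcribed pseudogene and a noncoding transcript in the annotation, at 34.2, 30.1, 27.4 and 36.8 FPKM and 5.88, 5.43, 5.89 and 6.94 FPKM. None of the 10 belonged to a list.

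The 4 genes that passed without the 2 libraries with few genes rested on few values. Ear12, an eosinophil-associated ribonuclease gene, was listed at 0 in the controls and the libraries with few genes, and was at 1.77 and 2.06 FPKM in SNT_1dpi replicate 2 and SNT_2dpi replicate 1 (limma adjusted p 0.0235). Snora68, a small nucleolar RNA, was above 0 in SNT_2dpi replicate 1 alone, at 5.86 FPKM (limma adjusted p 0.0278). Eif3j1 and Eif3j2 are near-identical genes of a subunit of translation initiation factor 3. Eif3j1 was at 16.4 FPKM in SNT_1dpi replicate 2 and listed at 0 in the other 3 libraries and all controls, while Eif3j2 was at 10.96, 0, 17.3 and 25.8 FPKM against 9.06 to 25.997 FPKM with a median of 22.8. The 1 library with Eif3j1 is thus the 1 with no Eif3j2, and the values of both genes are uncertain.

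Of the 67 genes below all controls, 34 had such a mean, and the 10 with the lowest p included Ltf, Cd177, Ngp and Chil3. Pirb, an inhibitory receptor of myeloid cells, was at 5.01, 11.2, 11.5 and 5.76 FPKM against 11.7 to 79.8 FPKM with a median of 25.03 (difference -1.64 ± 0.37, SE). Fgr, a Src-family kinase of myeloid cells, was at 3.76, 4.35, 5.67 and 0.885 FPKM against 5.97 to 29.8 FPKM with a median of 9.41 (difference -1.53 ± 0.37, SE), and Gsn, the actin-severing protein gelsolin, at 6.14, 10.6, 13.3 and 2.64 FPKM against 14.1 to 49.1 FPKM with a median of 20.2 (difference -1.63 ± 0.37, SE). Sema4a, a semaphorin, Rab3d, a GTPase of granule secretion, and Fam65b were listed at 0 in SNT_1dpi replicate 1. Their highest values in the 4 libraries were 4.35, 3.28 and 2.88 FPKM, just under the lowest controls of 4.48, 3.33 and 3.01 FPKM. Without the 2 libraries the differences of Pirb, Fgr and Gsn were -1.16, -1.04 and -0.96. Limma adjusted p for these 10 genes was 0.128 to 0.132. Evi2b, a membrane protein gene of blood cells, was listed at 0 in all 4 libraries against 0 to 24.8 FPKM with a median of 12.98, with 1 control also listed at 0 (limma adjusted p 0.128). All 67 also lay below all controls in the 2 libraries that had the usual number of genes, as they must; there 114 genes (0.969%) were below all controls and 54 (0.459%) above.

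Markers of other cell types were read in the same way. Of the 15 T and NK cell genes only 3 were tested, and Cd3e, Cd3d, Cd3g, Cd4 and Cd8a were among those not tested. The astrocyte list had a median of -0.02, the neuron list 0.09 and the oligodendrocyte list 0.12; without the 2 libraries with few genes they were -0.07, -0.12 and 0.20. Border macrophage genes had a median of -0.34 (-0.03 without the 2 libraries), with Pf4, platelet factor 4, at 9.98, 6.68, 10.7 and 23.9 FPKM against 1.35 to 7.07 FPKM with a median of 5.17 and F13a1, a clotting factor subunit of perivascular macrophages and monocytes, at 0.0353, 3.37, 10.7 and 3.53 FPKM against 5.17 to 25.4 FPKM with a median of 9.97. Pf4 was above all controls in all but SNT_1dpi replicate 2, and F13a1 below them in all but SNT_2dpi replicate 1. Of the myelin genes, Mobp was at 14.7, 6.13, 3.85 and 5.46 FPKM against 0.570 to 4.47 FPKM with a median of 1.33 (difference 1.44 ± 0.36, SE; limma adjusted p 0.132; 1.05 without the 2 libraries).

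At 1 dpi alone, 2 genes (0.017% of those tested) rose and 0 fell at an adjusted p of 0.05. Xcl1, which encodes lymphotactin, a chemokine made by T and NK cells, lies at chr1:164931644-164935527 on the minus strand in GRCm38. It was at 8.16 and 1.37 FPKM in the 2 libraries at 1 dpi and was listed at 0 in both 2 dpi libraries and in all 9 controls; the limma adjusted p was 0.00133. No fold is given against a group listed at 0. In the other 17 libraries of the series it was above 0 in 1, at 0.828 FPKM. At the estimated depths a listing at 0 allows up to 3.3 and 2.12 FPKM of this short transcript in the 2 dpi libraries. At those limits the day 2 level could not be told from that of SNT_1dpi replicate 2. The next best spacings gave greater depths for both 2 dpi libraries, and so lower limits. Xcr1, the gene of the Xcl1 receptor, was listed at 0 in 3 of the 4 libraries and was not tested.

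The second gene, 1700084E18Rik, is annotated as an antisense transcript at chr2:30236795-30238223 on the minus strand. It was at 5.97 and 2.26 FPKM at 1 dpi, listed at 0 at 2 dpi, and at 0 to 1.17 FPKM in the controls, 6 of which were listed at 0. The 1 dpi libraries lay above all controls, with a difference of 1.99 ± 0.32 (SE) and a limma adjusted p of 0.0185. The library type named in the labels does not mark strand, so reads of the gene on the other strand cannot be told apart. Both calls ended in the fit with the replicate number as a block, in which 0 genes passed (lowest adjusted p 0.0949), and without SNT_1dpi replicate 1, where neither was called and Eif3j1 and Eif3j2 were the 2 genes that passed. Both calls also ended against naive controls alone, where Erf and Slc39a1 were the 2 genes that passed, and with a filter of 5 FPKM, where 0 passed. The block fit is not a separate test from that against naive controls. Each saline library has a number of its own in it and so drops out of the comparison. The median difference over all genes was -0.311 in both fits. The call of 1700084E18Rik alone ended with TPM rescaling, a pseudocount of 0.1, array weights, detected genes as a covariate, 13 libraries in the fit and saline controls alone, all of which kept Xcl1. Without SNT_1dpi replicate 2, 205 genes were higher and 1016 lower, with the lone 1 dpi library assumed to vary like the other groups. Without saline_fixed replicate 5 the count was 6, and without saline_fixed replicate 6 it was 4.

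Beside Xcl1, other lymphocyte genes and myelin genes were read at 1 dpi. Gzma, granzyme A of cytotoxic lymphocytes, was at 11.3 and 3.92 FPKM on day 1 and at 0 and 0.842 FPKM on day 2, with controls from 0 to 4.91 FPKM with a median of 0.577. Nkg7, a granule protein of the same cells, was at 7.55 and 7.49 FPKM on day 1 and at 0.707 and 2.27 FPKM on day 2, with 1.02 to 21.1 FPKM in the controls. Only SNT_1dpi replicate 1 exceeded all controls for Gzma, and no library did for Nkg7. The mean log2(FPKM + 1) over the 3 tested T and NK genes was 2.43, 2.57, 1.27 and 2.10 in the 4 libraries and 0.93 to 3.24 in the controls, and none passed the adjusted threshold. Mbp, the myelin basic protein gene, was at 181 and 143 FPKM on day 1 and at 34.7 and 28.2 FPKM on day 2 against 15.2 to 107 FPKM, above all controls on the first day only (difference 1.80 ± 0.67, SE; limma adjusted p 0.208). The part of lymphocytes or myelin in the 1 dpi values was not tested.

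At 1 dpi 223 genes (1.9%) lay above and 509 (4.33%) below all controls, and 514 (4.37%) and 1385 (11.8%) had an unadjusted p under 0.05. The neutrophil median was -2.01 and the mitosis median -0.97, against -0.25 over all genes. The neutrophil value rested largely on SNT_1dpi replicate 1: the median difference from the controls was -3.15 in that library and -0.80 in SNT_1dpi replicate 2. Of the named genes short of the threshold, Haus2, a subunit of the spindle complex augmin, was listed at 0 in both libraries against 1.99 to 6.05 FPKM with a median of 3.62 (limma adjusted p 0.0781). Nkx6-2, a homeobox gene of oligodendrocytes, was at 17.3 and 0.524 FPKM and at 0.440 and 0.886 FPKM at 2 dpi, with 8 of 9 controls listed at 0; its size came from SNT_1dpi replicate 1. Rpl36, a ribosomal protein gene, was at 938 and 507 FPKM against 121 to 441 FPKM with a median of 144, and Atox1, a copper chaperone, at 583 and 286 FPKM against 51.7 to 276 FPKM with a median of 98.4 (differences 1.91 ± 0.46 and 2.05 ± 0.56, SE). Nudt19, Exoc4, Wdr20 and Fgl2, the lower genes at this day, were each listed at 0 in SNT_1dpi replicate 1, with 4.396, 3.97, 3.04 and 1.82 FPKM in SNT_1dpi replicate 2.

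At 2 dpi 0% of genes passed the adjusted threshold in either direction. Without SNT_2dpi replicate 1, 150 genes were higher and 993 lower, without SNT_2dpi replicate 2 the count was 1 (Snora68), and without saline_fixed replicate 5 it was 1 (Chid1). At an unadjusted p under 0.05 there were 175 higher (1.49%) and 687 lower (5.84%), and 45 genes (0.383%) lay above and 225 (1.91%) below all controls. The neutrophil median was -1.33, the monocyte median -1.03 and the mitosis median -0.91, against -0.23 over all genes. Among the genes of the lowest p, Ccnd3, a G1 cyclin, was at 19.2 and 10.3 FPKM against 32.5 to 108 FPKM with a median of 40.8 (difference -1.81 ± 0.42, SE; limma adjusted p 0.67), while at 1 dpi it was at 32.8 and 34.99 FPKM and inside the range. Acot9, a mitochondrial acyl-CoA thioesterase, was at 5.57 and 4.06 FPKM against 8.43 to 18.01 FPKM with a median of 12.5. On the higher side Hebp1, a heme-binding protein, was at 27.1 and 31.003 FPKM against 3.02 to 24.3 FPKM with a median of 8.18, and Csnk2b, the regulatory subunit of casein kinase 2, at 66.9 and 98.3 FPKM against 23.6 to 60.8 FPKM with a median of 52.2 (differences 1.67 ± 0.48 and 0.81 ± 0.31, SE; limma adjusted p 0.67 and 0.67). Nr1d1, the clock repressor REV-ERBα, was at 8.73 and 5.35 FPKM and 6.04 FPKM in SNT_1dpi replicate 2, against 0 to 3.97 FPKM with a median of 2.05. In SNT_1dpi replicate 1 it did not exceed the highest control.

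The 2 days did not differ in any gene at an adjusted p of 0.05 when set against each other directly (0% of those tested, lowest adjusted p 0.0572). At an unadjusted p under 0.05, 239 genes (2.03%) were higher and 287 (2.44%) lower at 2 dpi. Together these were fewer than the 588 expected by chance. The 2 pairs had no overlap in 1104 genes (9.39%) higher and 1093 (9.3%) lower at 2 dpi. With 2 libraries a day such separation can arise by chance in many genes, and its chance level was not tested. No gene named below passed the adjusted threshold in the main fit, so none is called different between the days. Without SNT_1dpi replicate 2 the adjusted count was 295, and without SNT_2dpi replicate 1 it was 128; without saline_fixed replicate 3 or 5 it was 2 each time, without SNT_1dpi replicate 1 it was 2, and without SNT_2dpi replicate 2 it was 1. Xcl1 was the gene nearest the threshold on the lower side (difference -2.22 ± 0.37, SE; limma adjusted p 0.0572). Arl6ip5, a membrane protein of the endoplasmic reticulum, was at 7.95 and 24.1 FPKM on day 1 and at 83.2 and 69.8 FPKM on day 2, with 21.4 to 67.8 FPKM in the controls. Laptm4a, a lysosomal membrane protein, was at 15.96 and 26.5 FPKM on day 1 and at 158 and 149.8 FPKM on day 2. Rraga, a GTPase that brings mTORC1 to the lysosome, was at 0 and 5.31 FPKM on day 1 and at 24.6 and 36.2 FPKM on day 2. For all 3 the 1 dpi values were in the lower part of the control range or under it and the 2 dpi values above the highest control (differences 2.37 ± 0.55, 2.84 ± 0.71 and 3.62 ± 0.93, SE; limma adjusted p 0.523, 0.941 and 0.941). Tfpt had the opposite order, at 31.4 and 11.8 FPKM on day 1 and at 3.03 and 5.21 FPKM on day 2, and so did Dand5, at 15.3 and 8.02 FPKM and 2.81 and 1.81 FPKM. For the homeostatic list the means were 9.05, 9.18, 9.44 and 8.33 on the log2 scale, with the highest and the lowest both at 2 dpi, and for the neutrophil list, given above, both extremes were at 1 dpi. For the oligodendrocyte list the means were 2.76, 2.89, 2.32 and 2.46, with both 1 dpi libraries above both 2 dpi libraries.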

How the data were processed

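The deposited FPKM table was used as the authors gave it. Per the submitters' processing notes, HISAT2 2.0.5.1, Cufflinks 2.2.1, featureCounts 1.4.6 and DESeq2 were named, with build mm10; per the labels, CD11b+ cells were selected with magnetic beads after perfusion and myelin removal, and libraries were made with Smart-Seq2 and Nextera XT. From 24888 rows, 826 with repeated symbols were left out. Genes at 1 FPKM or more in at least 2 of the 30 libraries were tested (11759) with limma 3.58.1 (R 4.3.3), with a mean trend, on log2(FPKM + 1), in 1 fit of 23 libraries (14 after nerve injury, 9 controls), with Benjamini-Hochberg adjustment over all genes, two-sided. Differences are on the log2(FPKM + 1) scale, which understates changes of low genes. The test was tried first on simulated data.

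Depth was estimated from FPKM times transcript length over 5547 genes with 1 annotated transcript, taking the step whose multiples held the most low values. In the 13 libraries used, 41.9% to 61.3% of values up to 4 steps came out whole within 0.05, so depth is approximate, and limits from a count of 0 (3 fragments) cover counting error only.

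The libraries and lists were chosen with earlier results of these data known. Named genes were the called ones or, with none called, the 10 of lowest p each way with a mean of at least 5 FPKM and no overlap; the 4 most abundant and 2 of lowest p of each list; and a preset list of microglial and pain genes. Some genes that meet this rule are not reported here. Outside that rule, Ccnb1, Rrm2, Cdt1, Uhrf1, Kif11, Ndc80 and Prtn3 were chosen after their values were seen, as list members below all controls, and so were Evi2b, Chid1, Ear12, Snora68, Eif3j1, Haus2, Erf and Slc39a1, which passed only under an alternative. Alternatives were other pseudocounts, filters, scalings, control sets, a covariate for detected genes, array weights, a replicate block, and each library left out.

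Same-numbered SNT libraries of the 2 days deviated with a correlation of -0.12, and nothing in the labels says that a number marks a shared mouse or day, so numbers were not taken as pairs. Promoter sequences are from RefSeq (GRCm38.p6), where 13 of 15 neutrophil and 21 of 26 mitosis genes matched.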

Additional observations from a re-analysis of the deposited data

Results flagged for a closer look

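In 272 groups of values of the lists and named genes, 21 held a library far from the others by Dixon's gap test, which flags about 1 in 20 groups by chance. Among the early SNT libraries, SNT_1dpi replicate 1 was the lone low value of the monocyte list mean (0.797 on the log2 scale), Chil3 (0.443 FPKM) and Ngp (29.6 FPKM), and the lone high value of Nkx6-2 (17.3 FPKM). SNT_2dpi replicate 2 was the lone low value of Irf8 (41.4 FPKM), Irf5 (37.5 FPKM), H2-D1 (167 FPKM) and Atf3 (1.68 FPKM). Of the libraries with the usual number of genes, SNT_1dpi replicate 2 stood apart in Eif3j1 (16.4 FPKM) and SNT_2dpi replicate 1 in Snora68 (5.86 FPKM), the only early library above 0 in each. SNT_2dpi replicate 1 was also the lone low value of Erf (7.87 FPKM) and Slc39a1 (29.9 FPKM).

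Among the controls, saline_fixed replicate 5 was low in Evi2b and Chid1 (0 FPKM in both), Nudt19 (4.69 FPKM) and the cholesterol synthesis list mean (2.02 on the log2 scale). The naive replicate 2 was high in Mki67 (8.24 FPKM). The saline_escalating replicate 9 was high in Apoe (3932 FPKM) and the neuron list mean (2.67 on the log2 scale) and low in Tmem119 (572 FPKM). In Nkx6-2, saline_fixed replicate 4 was the only control above 0, at 0.322 FPKM.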

How the results depend on the processing

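The count of genes at an adjusted p of 0.05 was 0 for early SNT, 2 for 1 dpi, 0 for 2 dpi and 0 between days. With a pseudocount of 0.1 it was 1, 4, 0 and 1. With no filter on low values it was 5 for early SNT, 3 for 1 dpi, 15 for 2 dpi and 10 between days, and with a filter of 5 FPKM it was 0 for 1 dpi. TPM rescaling gave 9 for early SNT and 1 between days, and quantile normalization and median-ratio scaling gave 1 and 2 between days. For 1 dpi, array weights, a fit of 13 libraries, detected genes as a covariate and saline controls alone gave 1 each. Naive controls alone gave 2 for early SNT, and the fit without the 2 libraries with few genes gave 4. With the replicate number as a block the counts were 0 in all 4 comparisons, with same-numbered libraries correlated at -0.12. With crossed numbers, an alternative chosen after seeing the data, the block gave 4, 4, 0 and 2. In either block each saline library has a number of its own, so the comparisons with controls rest on the naive libraries alone.

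Leaving out each library in turn gave 0 to 1636 genes for early SNT, 2 to 1221 for 1 dpi, 0 to 1143 for 2 dpi and 0 to 295 between days. The cause was not tested. Genes above all controls, 10 in the data as deposited, numbered 22 after quantile normalization and 54 without the 2 libraries, and 14 to 160 with one early library left out. Genes below all controls, 67 there, numbered 30, 114 and 83 to 418 in the same order, and 113 after TPM rescaling.

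For the 101 named genes tested in early SNT against controls, 2417 values under alternatives held 2246 on the same side of the threshold and 108 newly past it. Another 63 changed sign with neither value past it. The count of reversed calls was 0, as it had to be, because the main fit called 0 genes. Over 35 lists, 76 of 385 medians moved by more than 1 SD of the controls.

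The 4 early libraries include 2 with few genes, and estimated depths go down to 1740000 fragments. Detectable sizes are not reported here. The controls had no sham surgery, and the naive pair had lower neutrophil list means than the saline libraries.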

Other observations

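Lists that the report does not describe in full gave these medians with and without the 2 libraries with few genes. Phagocytic and scavenger receptor genes had -0.45 and 0.06 over 16 genes. Genes of TGF-beta and SMAD signalling, which holds microglia in their resting state, had -0.36 and 0.02, with 11 of 11 and then 5 of 11 differences negative. With all 4 early libraries that median depended on the control set, at -1.01 against naive and -0.10 against saline controls alone. Cholesterol synthesis genes had -0.32 and 0.01, splicing factors -0.06 and 0.13, and heat shock genes -0.01 and -0.08. B cell genes (5 tested), endothelial and mural genes (5 tested), oligodendrocyte precursor genes (1 tested) and red blood cell genes (2 tested) had medians of -0.18, -0.45, 0.02 and 0.09 with all 4 libraries, and -0.43, -0.05, -0.30 and 0.01 without the 2.

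Over the ribosomal list, the mean of log2(FPKM + 1) was 9.20, 8.55, 8.06 and 9.19 in the 4 libraries and 7.02 to 8.69 in the controls. Only the 2 libraries with few genes were above all controls.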
